A study of Mus musculus with 2 samples.

Results

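Cortical projection neurons are described here through 44 genes of excitatory neuron and layer identity, measured in the left cerebral cortex of 2 mice. The genes are a list of symbols matched to gene identifiers in the deposited tables, and all 44 were found among the 55536 annotated genes. They were grouped as pan-excitatory (14 genes), upper layer (7), layer 4 (4), layer 5 (7) and layer 6 (12), and 28 of them encode regulators of transcription. Both mice were 36-day-old females of B6CASTF1/J, hybrids that inherit a C57BL/6J and a CAST/EiJ genome. The labels name no treatment, induced mutation or second group, so the comparisons open to these data are between genes and between the mice. Replicate 1 and replicate 2 are 1 library each from separately numbered animals. This leaves no test of a condition, so no p-values are given, and a mean ± SD refers to the 2 mice.

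Projection neurons are the glutamatergic cells of the cortex that send axons to other cortical areas, the striatum, the thalamus, the brainstem and the spinal cord. They are born in order from progenitors of the dorsal telencephalon and settle in layers. Upper layer cells mainly connect cortical areas, layer 4 cells receive thalamic input, layer 5 holds cells that project below the forebrain, and layer 6 holds cells that project to the thalamus, with the remnant of the subplate beneath them. Transcription factors that repress or activate one another set these fates, among them Fezf2, Bcl11b, Tbr1 and Sox5. Many of them remain expressed after development, as do terminal features such as transporters, receptors and calcium-binding proteins.

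The libraries held 29417186 and 35188766 expected counts, the reads that the quantifier assigned to genes, in replicates 1 and 2. Levels are in TPM, a share of all transcripts corrected for length. Nuclear protein-coding genes took 46.9% of TPM in replicate 1 and 41.9% in replicate 2. A gene was taken as expressed at 1 TPM or more in both mice, which 57.9% of nuclear protein-coding genes reached. Of 4 listed thalamic markers 3 were expressed, from Lef1 at 2.62 ± 0.481 TPM to Prkcd at 5.23 ± 1.76 TPM, while Gbx2 had 2 and 0 counts, where a count of 0 allows up to 3 when only counting error is considered. Drd1, Drd2, Adora2a, Rgs9 and Gpr6, which mark striatal neurons, lay between 2.91 ± 0.431 and 13.6 ± 1.55 TPM. In bulk tissue, more cells of a type and more RNA per cell cannot be told apart.

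Promoter sequences are shown for 3 layer 6 genes: Ntsr1 and Rprm, the members that differed most between the mice, and Nr4a2, a relative of the activity-regulated gene Nr4a1. Each is the 250 bases before the annotated start, 5′ to 3′ on the strand of the gene, from RefSeq on GRCm38.p6. Capitals mark TGACG or its reverse complement CGTCA, the half-site of the cyclic AMP response element, and TATAAA or its reverse complement TTTATA, the TATA box. The Ntsr1 window is chr2:180499726-180499975 on the plus strand, the Rprm window chr2:54085553-54085802 on the minus strand and the Nr4a2 window chr2:57124004-57124253 on the minus strand.
Ntsr1: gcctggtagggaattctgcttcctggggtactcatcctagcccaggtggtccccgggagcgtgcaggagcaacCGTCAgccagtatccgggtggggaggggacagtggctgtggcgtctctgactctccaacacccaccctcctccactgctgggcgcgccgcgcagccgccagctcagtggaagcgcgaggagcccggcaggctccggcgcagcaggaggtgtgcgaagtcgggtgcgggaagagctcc
Rprm: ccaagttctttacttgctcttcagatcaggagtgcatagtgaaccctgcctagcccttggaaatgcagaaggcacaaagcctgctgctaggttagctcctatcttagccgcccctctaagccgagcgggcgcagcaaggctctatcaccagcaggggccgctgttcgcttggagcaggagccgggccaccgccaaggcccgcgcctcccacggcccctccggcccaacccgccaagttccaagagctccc
Nr4a2: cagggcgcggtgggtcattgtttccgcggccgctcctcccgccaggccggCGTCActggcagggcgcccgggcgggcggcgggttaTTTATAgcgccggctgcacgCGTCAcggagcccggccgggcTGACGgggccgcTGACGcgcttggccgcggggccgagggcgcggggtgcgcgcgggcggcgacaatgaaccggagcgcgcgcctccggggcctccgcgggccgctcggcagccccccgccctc
The Nr4a2 window holds 4 half-sites and 1 TATA match, the latter 164 bases before the start, none overlapping another. The window precedes the start of Nr4a2-203, which took 22.0% ± 2.34 of the gene's TPM. The leading transcript Nr4a2-201, with 58.6% ± 0.592, starts 8965 bases further into the gene. By the second quantifier described below, Nr4a2-203 took 28.7% in replicate 1 and 1.47% in replicate 2, and Nr4a2-201 took 38.9% and 68.7%. The half-sites of the window begin 200, 144, 123 and 111 bases before the start. The Ntsr1 window holds 1 half-site, 177 bases before the start, and the Rprm window holds neither motif. GC content was 80.0% for Nr4a2, 68.4% for Ntsr1 and 62.4% for Rprm. RefSeq promoters were matched for 32 of the 44 genes. They were not matched for Deptor, Otof, Scnn1a, Pou3f1, Ccn2, Nxph4, Crym, Calb1, Bhlhe22, Zfpm2, Nfib and Foxp2.

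Across the 32 matched genes, 9 held the half-site in at least 1 promoter. By promoter this was 9 of 46 (19.6%), against 17.8% of all 32851 promoters of the same length searched on both strands. These were Emx2, Foxp1, Lhx2, Neurod2, Nr4a2, Ntsr1, Rasgrf2, Slc17a6 and Whrn. The E-box CAGATG, the form that NeuroD factors are known to bind, was found at Cux2, Etv1, Mef2c, Neurod2 and Slc17a6, in 10.9% of the 46 promoters and in 14.4% of all promoters. TATAAA was found at Cux2, Etv1, Mef2c and Nr4a2, in 10.9% of the 46 promoters and in 12.4% of all promoters. The octamer ATGCAAAT bound by POU factors was found at none of the 32 genes and in 1.60% of all promoters. A match is a match of letters and was not tested as a binding site.

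All 44 genes were expressed in both mice, from 1.67 and 1.18 TPM for Scnn1a to 615 and 643 TPM for Slc17a7. Their median was 22.0 ± 1.06 TPM. By mean, 3 genes were above 100 TPM, 29 lay between 10 and 100 TPM and 12 were below 10 TPM. The 28 regulators of transcription had a median of 25.7 ± 4.10 TPM and the other 16 genes one of 11.2 ± 1.05 TPM. The group medians were 47.6 ± 5.68 TPM for the upper layer, 32.2 ± 1.41 TPM for the pan-excitatory genes, 22.6 ± 0.714 TPM for layer 5, 13.6 ± 2.56 TPM for layer 4 and 12.1 ± 0.148 TPM for layer 6. Layer 4 was above layer 6 in replicate 1, at 15.4 against 11.9 TPM, and below it in replicate 2, at 11.8 against 12.2 TPM. A group median depends on which genes were listed and is no count of cells. The ranges of the groups overlapped, as the plot of levels by gene shows.

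**Figure D1:**
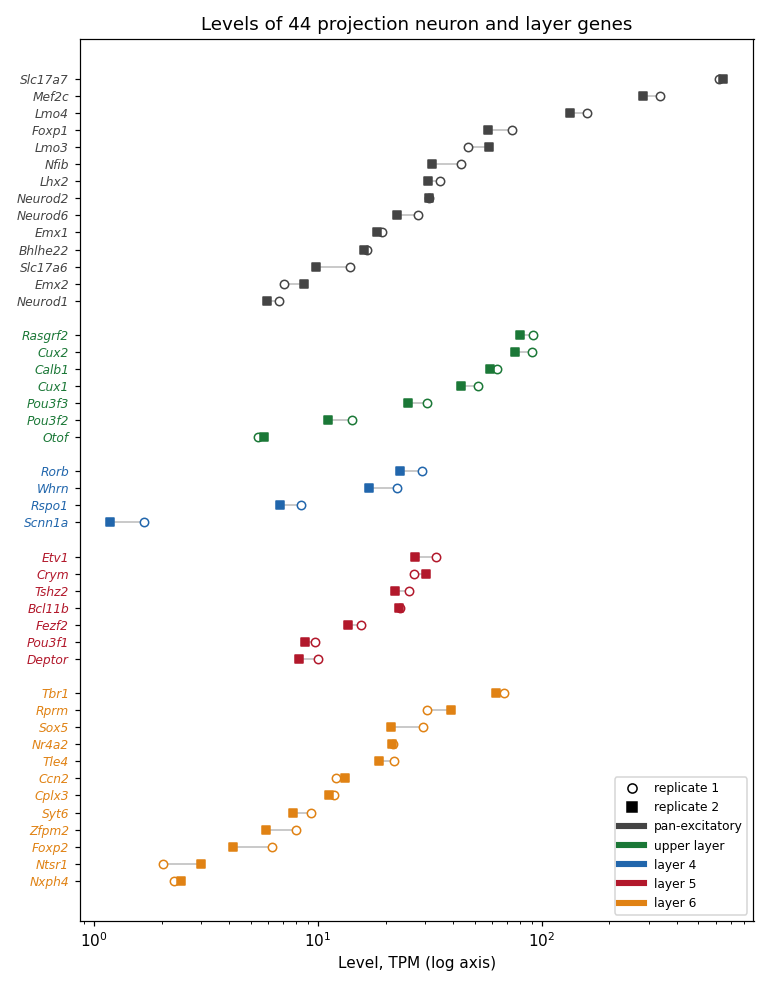
Level of each of the 44 genes in TPM on a log axis, with an open circle for replicate 1 and a filled square for replicate 2, grouped and coloured by layer group and ordered by mean. Slc17a7 is highest at 615 and 643 TPM, Scnn1a lowest at 1.67 and 1.18 TPM, and in 35 of 44 genes the square lies to the left of the circle.

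Among the pan-excitatory genes the highest was Slc17a7, which encodes the vesicular glutamate transporter VGLUT1 of cortical neurons and lies at chr7:45163949-45176142 on mm10. It ranked at the 99.7th percentile of expressed nuclear protein-coding genes. Slc17a6, which encodes VGLUT2 and is known mainly from thalamus and brainstem, stood at 13.9 and 9.80 TPM. The ratio of the first transporter to the second was 44.3 in replicate 1 and 65.6 in replicate 2, so its size was not settled by these mice. Beside Slc17a6, which had a log2 ratio of replicate 2 to replicate 1 in scaled counts of -0.08, the 4 thalamic markers had a median of -0.24 and summed levels of 14.0 and 9.69 TPM. The part of such cells in the Slc17a6 level was not tested.

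The second highest was Mef2c, a MADS-box transcription factor gene of activity-dependent synapse control, at 337 and 283 TPM. The LIM-only cofactor gene Lmo4 had 159 and 134 TPM, and its relative Lmo3 46.6 and 57.7 TPM. Lmo4 was thus the higher of the 2 in both mice, 2.86 ± 0.766 times by TPM. The forkhead gene Foxp1 had 73.3 and 57.5 TPM, and Nfib, a nuclear factor I gene needed for deep layer and glial development, 43.6 and 32.3 TPM. Both were lower in TPM in replicate 2, as were 83.5% of expressed nuclear protein-coding genes.

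The NeuroD genes encode basic helix-loop-helix factors of neuronal differentiation. Neurod2 was at 31.4 and 31.3 TPM, Neurod6 at 28.0 and 22.6 TPM, and Neurod1 at 6.72 and 5.92 TPM. The order Neurod2, Neurod6, Neurod1 held in both mice. Neurod2 exceeded Neurod6 only 1.26 ± 0.187 times and Neurod1 4.98 ± 0.440 times. Bhlhe22, a related factor of cortical area identity, had 16.5 and 16.1 TPM.

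Emx1 and Emx2 are homeobox genes that mark the dorsal telencephalon, the field that gives rise to these neurons. Emx1 had 19.2 and 18.3 TPM and Emx2 7.03 and 8.64 TPM, a ratio of 2.43 ± 0.435. Lhx2, a LIM homeobox gene of cortical fate, had 35.1 and 31.1 TPM. Emx2 and Lhx2 are also known from glia and progenitors, so their level in whole cortex is not that of neurons alone.

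Of the upper layer genes, Rasgrf2, a guanine nucleotide exchange factor gene of Ras, had 91.3 and 80.1 TPM. The homeobox gene Cux2 was at 90.1 and 75.8 TPM and its paralog Cux1 at 51.6 and 43.6 TPM. The ratio of Cux1 to Cux2 was 0.573 and 0.575, nearly the same in both mice. With the second quantifier described below it was 0.711 and 0.730. Calb1, which encodes the calcium buffer calbindin, had 63.1 and 58.5 TPM and is known also from interneurons. The interneuron genes Gad1 and Sst, listed for comparison, had 152 ± 8.32 and 191 ± 5.01 TPM, and their part in the Calb1 level was not tested.

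The POU factor genes Pou3f3 and Pou3f2 act together in upper layer neurons. Pou3f3 had 30.7 and 25.3 TPM and Pou3f2 14.1 and 11.1 TPM, and the ratio of the first to the second was 2.23 ± 0.0760. Otof, which encodes the calcium sensor otoferlin best known from inner ear hair cells, was the lowest of the group at 5.40 and 5.74 TPM. It was the one upper layer gene with a higher TPM in replicate 2.

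The 4 layer 4 genes were led by Rorb, an orphan nuclear receptor gene of thalamus-recipient neurons, at 29.2 and 23.1 TPM. Whrn, which encodes the scaffold protein whirlin, had 22.5 and 16.8 TPM. Rspo1, which encodes a secreted enhancer of Wnt signalling, had 8.41 and 6.79 TPM. Scnn1a, which encodes a subunit of the epithelial sodium channel and whose promoter drives layer 4 Cre lines, had 1.67 and 1.18 TPM from 97 and 90 counts. All 4 had a lower TPM in replicate 2, as had 83.5% of expressed nuclear protein-coding genes.

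In layer 5, Etv1, an ETS factor gene, had 33.8 and 27.0 TPM, and Crym, which encodes a protein that binds thyroid hormone, 26.7 and 30.3 TPM. They swapped order between the mice. Tshz2, a teashirt zinc finger gene, had 25.5 and 22.1 TPM. Bcl11b, which encodes the zinc finger factor CTIP2 of corticospinal neurons, had 23.1 and 23.0 TPM.

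Fezf2, the zinc finger gene that specifies neurons projecting below the forebrain, had 15.6 and 13.6 TPM. Bcl11b exceeded it 1.59 ± 0.146 times and the upper layer gene Cux2 5.68 ± 0.146 times. Bcl11b is known also from interneurons and striatal neurons, and the part of those cells in its level was not tested. The POU gene Pou3f1 had 9.70 and 8.77 TPM, and Deptor, which encodes an inhibitor of the kinase mTOR, 9.12 ± 1.26 TPM.

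The layer 6 genes ran from Tbr1 at 64.9 ± 4.04 TPM to Nxph4 at 2.35 ± 0.113 TPM. Tbr1, the T-box gene of corticothalamic identity at chr2:61802930-61814114, had 67.7 and 62.0 TPM. It exceeded Fezf2 4.46 ± 0.153 times. Sox5, an SRY-box gene that times deep layer fates, had 29.6 and 21.1 TPM. The Groucho corepressor gene Tle4 had 21.9 and 18.7 TPM, and Rorb of layer 4 exceeded it 1.28 ± 0.0687 times.

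Rprm, which encodes the cell cycle protein reprimo, was second in the layer 6 group at 30.7 and 39.4 TPM. Syt6, a synaptotagmin gene, had 9.29 and 7.69 TPM, and Zfpm2, which encodes a partner of GATA factors, 7.94 and 5.87 TPM. Foxp2, the forkhead relative of Foxp1, had 6.20 and 4.16 TPM, and Foxp1 exceeded it 12.8 ± 1.42 times. Ntsr1, the neurotensin receptor gene whose promoter drives a widely used layer 6 Cre line, had only 2.02 and 3.01 TPM. The neurexophilin gene Nxph4 had 2.27 and 2.43 TPM from 67 and 97 counts. Ntsr1 and Nxph4 were the 2 lowest genes of the group in both mice.

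Genes of the subplate remnant below layer 6 were lower than Tbr1 in both mice. Nr4a2, an orphan nuclear receptor gene, had 21.7 and 21.4 TPM. Ccn2, which encodes a secreted matrix protein, had 12.1 and 13.2 TPM, and the complexin gene Cplx3, a regulator of vesicle fusion, had 11.8 and 11.1 TPM. Ccn2 is known also from vessels and meninges, whose listed markers ran from Dcn at 5.51 ± 0.304 TPM to Vtn at 27.0 ± 0.467 TPM. In those markers the log2 ratio of replicate 2 to replicate 1 had a median of 0.17. It ran from 0.04 for Cldn5 to 0.47 for Acta2, beside 0.37 for Ccn2. The part of these cells in the Ccn2 ratio was not tested.

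Ordered by mean level, the 44 genes form 43 neighbouring pairs. In 21 pairs both mice gave the same order and in 22 pairs the order was swapped. The top of the order was the same in both mice, with Slc17a7, Mef2c and Lmo4 in that sequence. The middle of the order, from about 20 to 35 TPM, held many genes that these 2 mice do not separate.

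Between the mice, counts scaled by edgeR's TMM method and expressed as the log2 ratio of replicate 2 to replicate 1 lay close to 0. The members' median was 0.05, beside 0.04 over the 12615 genes that averaged 100 or more counts, and 26 of 44 genes were above 0, beside 58.9% of those genes. Of the 44, 42 reached that count and Nxph4 and Scnn1a did not. Scaled to the spike-ins instead, the median of all those genes moved to -0.42 and 2 of the 44 members were above 0, so each ratio is relative to the bulk of genes. No member was 2-fold apart, as 0.713% of all tested genes were. At 1.5-fold, 2 members were higher in replicate 2 and none was lower, beside 1.16% and 1.93% of tested genes. With spike-in totals none was 1.5-fold higher and 5 were lower (Foxp2, Nfib, Sox5, Whrn and Zfpm2), beside 0.277% and 20.7% of tested genes. In contrast to these ratios, TPM was lower in replicate 2 for 35 of the 44 genes, beside 83.5% of expressed nuclear protein-coding genes, with the share of TPM in nuclear protein-coding genes lower as given above.

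By group, the median log2 ratio was 0.08 for the pan-excitatory genes, 0.06 for the upper layer, 0.03 for layer 5 and 0.13 for layer 6. Layer 4 stood at -0.14, with all 4 genes below 0, from -0.07 for Rspo1 to -0.29 for Scnn1a. Of all tested genes 58.9% were above 0. The 95% counting interval of Rspo1 and of Scnn1a included 0, while those of Rorb and Whrn did not. These intervals cover counting error only. The other layer 4 markers listed, Thsd7a and Kcnh5, had ratios of 0.01 and -0.10.

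**Figure D2:**
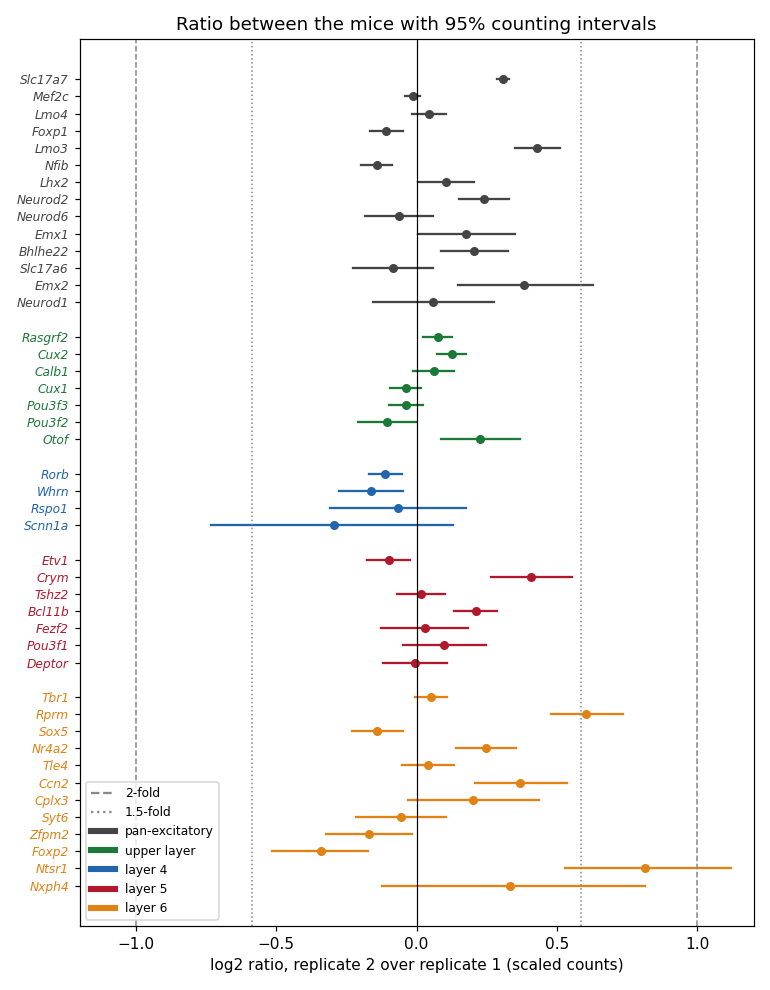
Log2 ratio of replicate 2 to replicate 1 in scaled counts for each of the 44 genes, with 95% counting intervals as bars, dotted lines at 1.5-fold and dashed lines at 2-fold. Ntsr1 at 0.81 and Rprm at 0.61 are the 2 points beyond a dotted line, and no point lies beyond a dashed line.

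The 2 members past 1.5-fold were both layer 6 genes. Ntsr1, at chr2:180499976-180544980, had 144 and 291 counts, 1.76-fold higher in replicate 2 on the scaled counts, with a log2 ratio of 0.81 and a counting interval from 0.53 to 1.12. Rprm, at chr2:54084093-54085552, had 780 and 1357 counts and was 1.52-fold higher, at 0.61 with an interval from 0.48 to 0.74. The layer 6 gene Nxph4, at 0.33, had an interval from -0.12 to 0.81, which overlapped those of Ntsr1 and Rprm. The other corticothalamic genes did not share the size of the Ntsr1 and Rprm ratios. Foxp2 was at -0.34 with an interval from -0.51 to -0.17, Zfpm2 at -0.17, Sox5 at -0.14, Syt6 at -0.06, Tle4 at 0.04 and Tbr1 at 0.05. Layer 6 thus held both the highest and the lowest ratios of the 44 genes.

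The other ratios above 0.30 were those of Lmo3 at 0.43, Crym at 0.41, Emx2 at 0.38, Ccn2 at 0.37, Nxph4 at 0.33 and Slc17a7 at 0.31. They come from 3 of the 5 groups. Slc17a7, with 32228 and 45588 counts, had the narrowest interval, from 0.29 to 0.33. For Slc17a7 the libraries differed by more than counting error on TMM sizes, while with spike-in totals its ratio was -0.16. With 2 mice the spread between animals is the difference itself.

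Nr4a2 belongs to the NR4A family of nuclear receptors, as does Nr4a1. Nr4a1 is among the 8 genes listed here as immediate early, and Nr4a2 was listed with layer 6 instead. Nr4a2 had 1247 and 1690 counts, a log2 ratio of 0.25 with an interval from 0.14 to 0.35. Nr4a1 had 1063 and 3436 counts and an interval from 1.40 to 1.60. The intervals of these relatives do not overlap. All 8 listed immediate early genes were higher in replicate 2, from 0.85 for Egr1 to 2.25 for Egr2. Each was at least 1.5-fold higher, as were 1.16% of tested genes, while 58.9% of tested genes were above 0. Nr4a2 lay below each of the 8.

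Longer genes tended to lower ratios, both among the members and at large. Across the 44 genes the Spearman correlation of annotated span with the log2 ratio was -0.47 and the Pearson correlation with log span -0.43. Across 11836 nuclear protein-coding genes that reached 100 counts on average these were -0.31 and -0.24. The points of each correlation share the same 2 libraries, so they describe these libraries and no p-value is given. Of 13 members under 10 kb, 10 were higher in replicate 2 and their median was 0.20. Of 17 members from 10 to 100 kb, 11 were higher with a median of 0.06. Of 14 members over 100 kb, 5 were higher with a median of -0.03.

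The same 3 length classes of all protein-coding genes had medians of 0.14, 0.03 and -0.03, with 77.7%, 58.1% and 43.6% of genes higher in replicate 2. The members followed the course of genes at large. Rprm, the shortest at 1460 bases, was among the highest ratios, and Sox5, the longest at 953553 bases, and Foxp2, at 540629 bases, were among the lowest. Lmo3, at 219051 bases with a ratio of 0.43, and Ntsr1, at 45005 bases with 0.81, lay far above the median of their length class.

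**Figure D3:**
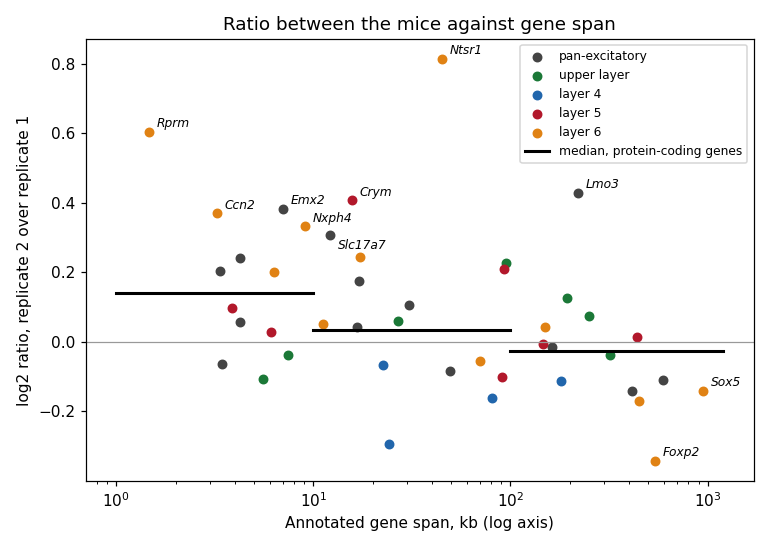
Log2 ratio of replicate 2 to replicate 1 against annotated gene span in kb on a log axis, 1 point per gene, coloured by group. Horizontal bars are the medians of nuclear protein-coding genes of 100 or more mean counts in 3 span classes, 0.14, 0.03 and -0.03, and Ntsr1 and Lmo3 lie far above them.

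Transcript use could be followed in 35 of the 44 genes, the other 9 having 1 annotated transcript. In 32 of 35 both mice had the same leading transcript, the one with the highest share of the gene's TPM, beside 88.4% of 11554 expressed protein-coding genes with several transcripts, the exceptions being Calb1, Lmo3 and Syt6. The leader took 50% or more in both mice in 19 genes (54.3%), beside 64% of those 11554 genes. Leaders were of the protein-coding type in 34 genes, beside 92.4% of the 11554. The second transcript table, made with another quantifier, named the same leader in 32 of 35 genes (91.4%), beside 76.7% of those 11554 genes.

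Genes with 1 dominant transcript were Ntsr1 and Rspo1 at 100% in both mice, Ccn2 at 97.9% and 97.8%, Crym at 97.2% and 98.5%, Slc17a7 at 97.0% and 97.7%, Tle4 at 95.7% and 98.1% and Rorb at 92.2% and 90.3%. At the other end, beside Syt6, the leaders of Cux1, Rasgrf2, Whrn, Sox5, Foxp1 and Cux2 took from 24.7% to 43.7%, and these genes have 6 to 31 annotated transcripts. Scnn1a had its leader at 78.9% and 40.7%, from under 100 counts in each mouse.

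In Tbr1 the quantifiers differed. The first table gave its coding leader Tbr1-201 96.5% and 90.3%, and the second table gave it 63.3% and 57.2%, with 36.1% and 41.1% on Tbr1-203, a processed transcript without a coding sequence. In Calb1 the coding Calb1-201 took 50.3% and 47.0% in the first table, and the retained-intron transcript Calb1-202 took 45.0% and 49.8%. Calb1-202 thus led in replicate 2 in that table, while the second table gave Calb1-201 74.9% and 78.6%. Cux2, Foxp1 and Foxp2 had another leader in the second table. The leader of Cux2 in the first table, Cux2-210, had 24.7% and 27.5% there and 3.88% and 1.29% in the second, where Cux2-201 led. The Syt6 leader, of the nonsense-mediated decay type, took 27.4% and 44.1% in the first table and 38.9% and 42.3% in the second. The leaders of Scnn1a, Cplx3 and Lmo4 had mean shares of 59.8%, 60.3% and 54.7% in the first table and 33.1%, 35.4% and 31.5% in the second, and that of Emx2 had 53.1% and 71.7%. In 23 of the 35 genes the change in share was at least the SD of the mice. That count includes Rspo1, which stayed at 100% and had an SD of 0. The shares of Slc17a7, Crym, Rorb, Tle4 and Ccn2 did not move by more than 1 percentage point in the mean.

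**Figure D4:**
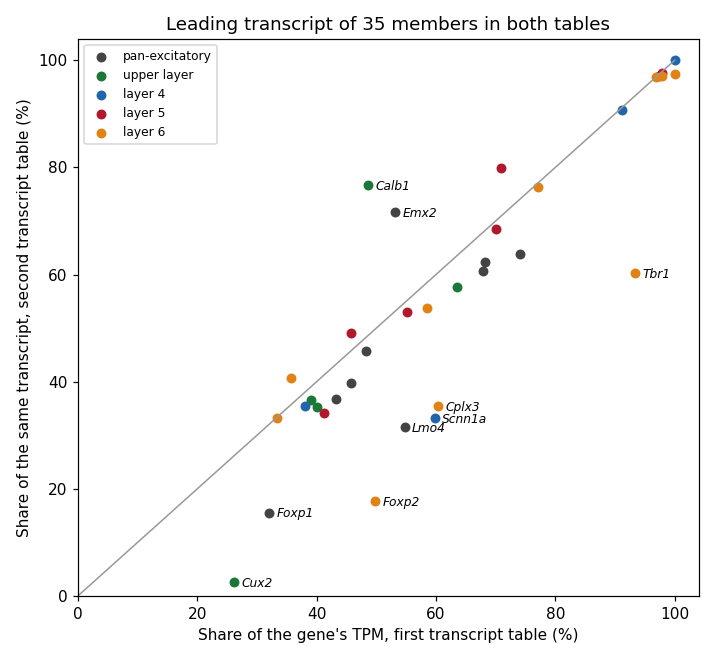
Share of each gene's TPM taken by its leading transcript, mean of the 2 mice, in the first transcript table (horizontal axis, %) and the share of the same transcript in the second table (vertical axis, %), for 35 genes, with the line of equal shares. Tbr1, Foxp2, Scnn1a, Cplx3, Cux2, Lmo4 and Foxp1 lie well below the line and Calb1 and Emx2 above it.

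Intron-retaining transcripts of most members took a smaller share in replicate 2. Transcripts annotated as retaining an intron had a share above 0 in 19 of the 35 genes, and the share was lower in replicate 2 in 17 of the 19 (89.5%), the exceptions being Calb1 and Cux2. Over all genes with such a transcript it was lower in replicate 2 in 77.4%. In the second table it was lower in all 19, beside 73.7% of all such genes. The direction in these genes is thus that of most genes.

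The annotation places 47 genes over 21 of the members. Of these, 12 are sense-intronic genes or genes to be experimentally checked (the annotation's TEC type), on the same strand inside 8 members, and their reads cannot be told apart from unspliced RNA of the member. Together they had 521 counts in replicate 1 and 300 in replicate 2, a log2 ratio of the sums of -0.99. All 7 that averaged 10 or more counts were lower in replicate 2, beside 91.1% of the 1388 such genes in the whole table, whose median was -0.73. Gm43445 within Lmo4 was the main one, with 192 and 93 counts and a ratio of -1.22, beside 0.04 for Lmo4 itself. The 27 genes on the opposite strand of members had 181 counts in each mouse, a scaled log2 ratio of the sums of -0.19.

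Other overlapping genes with at least 1 TPM were few and touch the reading of 6 members. Gm20696, a protein-coding model on the strand of Foxp1, had 2.71 ± 0.212 TPM, and Cerkl, on the strand of Neurod1, had 1.69 ± 0.679 TPM. Both Foxp1 and Neurod1 had expected counts that were not whole numbers, as did Etv1, so some of their reads were divided with other genes, while the other 41 members had whole counts. AC122898.1 at Pou3f3 had 3.94 ± 1.14 TPM, Gm11266 opposite Nfib 1.52 ± 0.757 TPM, Gm2164 opposite Pou3f1 1.56 ± 0.134 TPM and Gm15270 opposite Ccn2 1.46 ± 0.764 TPM. The strand setting of the counting is not stated in the sources. The microRNA model Gm22328 within Foxp1 rested on 1 count in each mouse.

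The second quantifier gave higher levels to nearly all members. The ratio of second to first TPM had a median of 1.51 over the 44 genes, beside 1.57 over all expressed nuclear protein-coding genes with quartiles of 1.45 and 1.77. It was lowest for Calb1 at 0.936 and highest for Tbr1 and Lmo4, both at 2.18. The other 41 genes lay between 1.2 and 1.9. A level of Calb1, Tbr1 or Lmo4 relative to other members therefore depends on the table more than that of the rest.

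A further 20 genes are known as layer markers and are not among the 44. Of these, 19 were expressed, the exception being Agmat at 0.49 ± 0.0566 TPM. The layer 5 gene Pcp4, which encodes a small regulator of calmodulin, was the highest at 278 and 245 TPM, above all listed layer 5 members. The upper layer genes Plxnd1 and Wfs1 had 45.4 ± 1.95 and 46.1 ± 5.01 TPM. In layer 6, Hs3st4 had 26.1 ± 0.912 TPM and Thsd7b, Moxd1, Chrna5 and Col23a1 between 2.56 ± 0.0495 and 3.67 ± 0.120 TPM. The 20 genes had a median log2 ratio of 0.03 and none was 1.5-fold apart, and Chrna5, at -0.38, and Wfs1, at 0.41, were at the ends. Of the 5 layer 6 markers outside the list, 4 were above 0, and their median was 0.17, beside 0.81 for Ntsr1. The highest, Moxd1 at 0.31, had a counting interval from -0.04 to 0.67, which overlapped that of Ntsr1.

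Markers of other cells were read beside the 16 members that those cells are known to share. The interneuron list had a median log2 ratio of 0.07, the astrocyte list 0.13, the oligodendrocyte precursor list 0.07 and the striatal list 0.40. Bcl11b, which striatal neurons share, was at 0.21, Foxp1 at -0.11 and Foxp2 at -0.34. All 5 striatal markers were above 0, as were 58.9% of tested genes, but the counting intervals of Rgs9 and Drd1 included 0. These 3 members did not all follow the striatal markers. The part of these other cells in the members' ratios was not tested.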

How the data were processed

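Total RNA was sequenced from 2 cortices, 1 library per mouse from 300 ng of RNA with ribosomal RNA reduced and spike-ins added, per the labels. The gene table and first transcript table deposited by the authors hold expected counts and TPM, per the file headers. The second transcript table deposited by the authors holds estimated counts and TPM from another quantifier, per the file headers. The assembly is mm10 and the annotation GENCODE M21 per the deposited notes, while neither aligner nor strand setting is stated in the sources. Reads of the CAST/EiJ allele were quantified against the reference genome, and any loss was not tested. The labels give the libraries different animal numbers and 1 shared donor record.

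The 44 members, their groups, 12 marker lists and 13 gene pairs were chosen with earlier results of these data known. All 44 members may be named, as may genes of the lists and overlapping genes with a mean of at least 1 TPM. A listed gene that counts include is not reported here by name. Levels are deposited TPM, mean ± SD of the 2 mice. Expected counts were rounded, scaled with TMM sizes (edgeR 4.0.16, R 4.3.3) and given as log2 ratios of replicate 2 to replicate 1 with a prior count of 2. Intervals are 95% exact Clopper-Pearson intervals of replicate 2's share of a gene's reads, which carry no molecular identifiers. Alternatives were DESeq2 1.42.0 size factors, spike-in totals, other thresholds and the second table. The steps were tested on simulated data. Scripts ran on Python 3.11.15 using pandas 2.3.3, numpy 2.4.6, scipy 1.17.1 and matplotlib 3.10.9.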

Additional observations from a re-analysis of the deposited data

How the results depend on the processing

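Group medians of TPM kept the order upper layer, pan-excitatory, layer 5, layer 4, layer 6 in the second table, at 56.9, 51.0, 34.0, 21.5 and 19.1 TPM, and after rescaling to nuclear protein-coding genes, at 107, 72.7, 51.0, 30.6 and 27.3 TPM. Without the 16 members that other cells share they were 28.0, 18.8, 19.2, 7.60 and 8.49 TPM, so pan-excitatory and layer 5, and layer 4 and layer 6, changed places. Leaving out replicate 1 or replicate 2 gave 31.2 to 33.2 TPM for pan-excitatory genes, 43.6 to 51.6 for the upper layer, 11.8 to 15.4 for layer 4, 22.1 to 23.1 for layer 5 and 11.9 to 12.2 for layer 6, so that layer 4 was below layer 6 without replicate 1. All 44 genes stayed expressed at 0.5 TPM, in the second table and in either mouse alone, and 40 at 5 TPM.

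No member was 2-fold apart at a mean count of 10, with no count minimum, with DESeq2 size factors, with spike-in totals or in the second table. With TMM sizes 2 were past 1.5-fold, Ntsr1 and Rprm, both higher in replicate 2. By alternatives chosen after seeing the data, the same 2 passed with DESeq2 size factors and in the second table, while with spike-in totals none was higher and 5 were lower. DESeq2 size factors and a prior count of 0.5 changed no sign. Spike-in totals moved the median over all tested genes from 0.04 to -0.42 and changed the sign of 24 members, so ratios are relative to the bulk of genes. The second table changed 4 signs. The correlation of span with ratio, whose alternatives were chosen after seeing the data, stayed near -0.47 in all 4. No pair changed sides of 1. No paired analysis was possible because the 2 libraries form 1 group.

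Nxph4, Scnn1a and Ntsr1 rest on few counts, and 1 library per mouse leaves the spread between mice to 2 values.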
